A study of Homo sapiens with 8 samples.

Results

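Matrix proteases and their inhibitors were followed here through 9 genes: the metalloproteinases MMP1, MMP7, MMP14 and MMP15, the urokinase gene PLAU, the metalloproteinase inhibitors TIMP1, TIMP2 and TIMP3, and the serine protease inhibitor SERPINE2. Members were all probes whose platform gene symbol was 1 of these 9, which gave 9 of 20046 named genes and 11 of the 47322 probes on the array, with 2 probes each for MMP7 and TIMP2. RNA came from Caco-2, a human colorectal cancer cell line grown as an adherent monolayer, and was hybridised to Illumina BeadChips with 2 arrays per group. ESRP1-silenced cells carried the hairpin sh4 against the splicing regulator ESRP1 in the lentivirus pLKO.1, and their Scr controls carried a scrambled hairpin. ESRP1-overexpressing cells carried ESRP1 in the lentivirus pLX304, and their Empty controls carried the vector without it. All cells had been infected and drug-selected, with puromycin for pLKO.1 and blasticidin for pLX304. With this single hairpin, loss of ESRP1 and any effect of its own that sh4 had cannot be told apart.

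Matrix metalloproteinases are secreted or membrane-bound enzymes that need zinc and cut collagens, proteoglycans and other proteins outside the cell. They are held in check by tissue inhibitors of metalloproteinases, the TIMPs, which bind the active enzyme. Urokinase works in a second system: it turns plasminogen into plasmin, which digests fibrin and can activate pro-metalloproteinases, and serpins such as SERPINE2 trap urokinase, plasmin and thrombin. In the gut these enzymes are known from tissue remodelling and from the margin of invading tumours, where stromal cells as well as tumour cells make them.

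The arrays of a group correlated at 0.984 to 0.991, those of different groups on 1 chip at 0.971 to 0.988, and those on different chips at 0.953 to 0.967. Scr and ESRP1-silenced arrays lay on 1 chip and Empty and ESRP1-overexpressing arrays on the other, so each comparison was made within a chip, while chip and control line cannot be told apart between Scr and Empty. The labels do not say whether the 2 arrays of a group came from separate cultures, so p-values measure the spread between arrays, which may be technical. Median signals ran from 167.1 to 227.3, and 15153 to 17535 probes were detected per array, fewer on the chip with Empty and ESRP1-overexpressing cells (15153 to 15627) than on the other (16966 to 17535). The ESRP1 probe rose in ESRP1-overexpressing against Empty cells by 1.77 on the log2 scale (SE, the standard error, 0.18; adjusted p = 0.0038) and was at least 3.09-fold lower in ESRP1-silenced than in Scr cells (adjusted p = 0.047), a comparison in which no probe at all was called once any 1 of the 8 arrays was left out. In such bulk samples, fewer cells with a transcript and less of it per cell cannot be told apart. Of 10 markers of intestinal epithelium, 6 or 7 were detected on each array, with CDX1, LGALS4 and GPA33 detected on none. Their summed signal was 51229.4 and 51237.2 on the Empty arrays, 72015.3 and 74409.1 on the ESRP1-overexpressing arrays, and 108006.6 to 131840.6 on the other 4. All marker sums here are of signals as deposited, without background correction or normalization, and the scale of signals differed between the chips. For example, the first TIMP2 probe had a mean signal of 2953.6 in Scr and 1510.7 in Empty cells. Its mean log2 levels after normalization were 11.13 and 11.12, so the sums cannot be read as marker levels across chips. Fibroblast markers, which matter here because fibroblasts make many of these enzymes, were detected for 1 to 4 of 8 genes, with COL3A1, DCN, THY1 and FAP detected on no array. Their summed signal was 1447.5 and 1503.8 in Empty, 1605.0 and 1609.8 in ESRP1-overexpressing, and 2202.8 to 2759.5 in Scr and ESRP1-silenced cells. Much of a sum over 8 probes this dim can be background, since the median signal of a single probe was 167.1 to 227.3. No difference in fibroblast markers is therefore read from these sums. Endothelial markers were detected for at most 1 of 5 genes. Leukocyte markers were detected for 3 of 6 genes, not including PTPRC, CD3E or ITGAM, and their summed signal was 3809.9 and 4201.8 in Empty against 8368.9 and 8729.6 in ESRP1-overexpressing cells. This list holds LYZ, which intestinal cells also make. The part of these marker levels in the results that follow was not tested.

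In ESRP1-overexpressing cells, 3 of the 8 testable member probes rose against Empty cells and none fell: the collagenase MMP1, the metalloproteinase inhibitor TIMP1 and the serpin SERPINE2, with linear folds of 3.09, 2.68 and 3.23. These folds depended on the processing. Over 16 alternative settings the log2 fold change of MMP1 ran from 1.44 to 1.76. That of TIMP1 ran from 0.96 to 1.63 and that of SERPINE2 from 1.14 to 1.88, so their order was not fixed. In ESRP1-silenced against Scr cells, no member probe passed the test, although PLAU and TIMP3 had the lowest values, with log2 fold changes of -1.05 and -0.94. MMP7 and MMP14 were not detected in any group. TIMP2 varied least of the detected genes by its first probe, but by its second probe Empty minus Scr was -1.31 on the log2 scale, across chips.

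Levels are log2 values after background correction and quantile normalization, and a probe was called detected on an array when its detection p, which sets its signal against negative control probes, was under 0.01. Calls in a comparison needed an adjusted p under 0.05 from limma with Benjamini-Hochberg adjustment over 18231 tested probes. Of all probes, 4.06% were called higher and 3.36% lower in ESRP1-overexpressing against Empty cells, 0.0329% higher and 0.0987% lower in ESRP1-silenced against Scr cells. Against this background stand 3 higher and 0 lower of 8 member probes in the first comparison and 0 and 0 in the second. Members were chosen with earlier results of these data known, so these counts are a description and not a test. At an unadjusted p under 0.05 from limma, 5 were higher and 0 lower with overexpression, and 1 was higher and 5 lower with silencing. The median log2 fold change of the 8 member probes was 0.53 in the first comparison and -0.35 in the second, with medians of 0.0004 and -0.0001 over all tested probes. The first was 0.45 with PLAU, undetected in Empty cells, at its lower bound. The 2 arrays of 1 group lay wholly above or below the 2 of the other for 7 of 8 member probes in each comparison, where 57.7% and 45.4% of all probes did so. With 2 arrays on each side the smallest p of an exact permutation test is 0.333, so none was used.

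Promoter windows are shown as reference sequence for the members. RefSeq windows (build GRCh38.p14) of the 150 bases before an annotated start were read for 7 of the 9 genes, in 9 windows. MMP1 and TIMP2 had no entry. The letters GGGCGG, known as a GC box, occurred on either strand in the windows of MMP14, MMP15, PLAU, TIMP1, TIMP3 and SERPINE2, and in 36.7% of 34943 windows of that length. A gene is listed if any of its windows held the letters, while the share counts windows. The AP-1 letters TGANTCA occurred only in MMP7 of these genes and in 4.18% of all windows. The TATA letters TATAAA lay in the MMP7 window (6.72% of all windows), the PEA3 letters AGGAAG in those of MMP7 and TIMP1 (18.8%), and the E-box letters CACCTG in that of MMP15 (10.6%). Each was searched on both strands, an E-box match in MMP15 shares a base with a GC box, and a match is a description of the sequence only. The windows printed are those of the 4 detected genes with an entry whose difference between the comparisons passed the test, with MMP7 as a member that was not detected. They lie at chrX:47582286-47582435 on the + strand (TIMP1), chr22:32801555-32801704 on the + strand (TIMP3), chr10:73910982-73911131 on the + strand (PLAU), chr2:224031479-224031628 on the - strand (SERPINE2) and chr11:102530748-102530897 on the - strand (MMP7). Capitals mark GC boxes, or in MMP7 the AP-1 letters, each running 5′ to 3′ on the strand of the gene.
TIMP1: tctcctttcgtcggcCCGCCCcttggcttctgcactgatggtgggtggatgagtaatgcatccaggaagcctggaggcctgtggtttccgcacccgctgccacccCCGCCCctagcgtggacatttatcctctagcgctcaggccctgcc
TIMP3: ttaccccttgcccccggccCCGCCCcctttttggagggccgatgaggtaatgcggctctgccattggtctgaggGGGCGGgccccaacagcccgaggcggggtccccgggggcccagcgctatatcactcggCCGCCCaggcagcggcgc
PLAU: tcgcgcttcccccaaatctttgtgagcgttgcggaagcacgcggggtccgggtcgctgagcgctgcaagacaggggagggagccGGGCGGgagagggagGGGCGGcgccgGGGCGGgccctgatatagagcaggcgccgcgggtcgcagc
SERPINE2: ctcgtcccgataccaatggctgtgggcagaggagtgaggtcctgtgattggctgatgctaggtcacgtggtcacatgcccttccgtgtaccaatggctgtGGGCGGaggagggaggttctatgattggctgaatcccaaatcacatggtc
MMP7: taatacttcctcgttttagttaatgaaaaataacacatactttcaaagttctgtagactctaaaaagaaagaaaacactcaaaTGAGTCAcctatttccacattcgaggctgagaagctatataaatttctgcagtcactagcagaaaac

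The TIMP1 window held 2 GC boxes, that of TIMP3 held 3, that of PLAU 3 and that of SERPINE2 1. PLAU and SERPINE2 each had another annotated start, whose window held none and is not printed, so for both genes the window shown is the one with GC boxes. The MMP7 window was the poorest in G and C, at 32.7% against a median of 60% over all windows, and the windows shown for PLAU and TIMP3 stood at 72.7%.

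MMP1 encodes interstitial collagenase, a secreted enzyme that cuts the triple helix of fibrillar collagens. On the log2 scale the Scr arrays gave levels of 7.30 and 7.66, ESRP1-silenced arrays 8.16 and 7.74, Empty arrays 9.41 and 9.66, and ESRP1-overexpressing arrays 11.15 and 11.18. No 2 groups overlapped, and both ESRP1-overexpressing arrays stood above the other 6. In signals as deposited, the ESRP1-overexpressing arrays read 1916.4 and 1858.8 against 527.2 and 654.4 in Empty cells. MMP1 rose in ESRP1-overexpressing against Empty cells on the log2 scale by 1.63 (SE 0.19, 95% interval 1.17 to 2.09, adjusted p = 0.0067 from limma). Among probes ranked by the size of the change, it was 159 of 18231. With silencing the log2 difference from Scr cells was 0.47 (SE 0.19, 95% interval 0.01 to 0.93, adjusted p = 0.36). Both differences were above 0, and their difference of 1.16 (SE 0.27) did not pass the test (adjusted p = 0.076). It passed under 4 alternative settings of limma, at an adjusted p of 0.0025 without background correction, 0.0047 with the authors' normalized values, 0.025 with detection on all 8 arrays and 0.0094 with a trended prior.

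MMP1 also differed between the control lines. Its mean was 9.54 ± 0.18 in Empty and 7.48 ± 0.25 in Scr cells (SD, n = 2 arrays), 2.05 apart on the log2 scale across chips. The order of the groups from highest to lowest was ESRP1-overexpressing, Empty, ESRP1-silenced and Scr, and no neighbours in it overlapped.

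**Figure D1:**
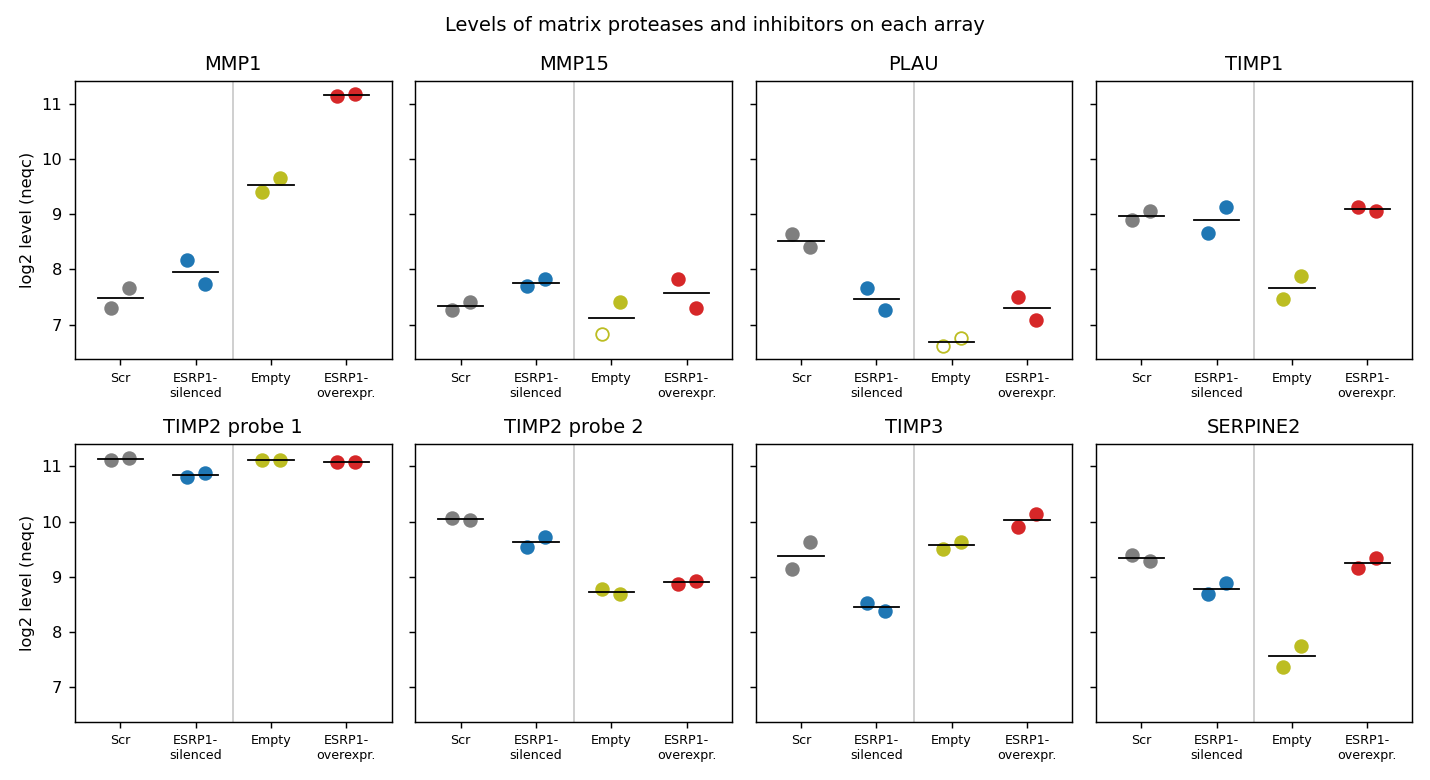
Log2 level (y axis, after background correction and quantile normalization) of the 8 member probes that were tested, on each of the 8 arrays. Points are arrays, open where the probe was not detected, bars are means of 2 arrays, and the vertical line parts the 2 chips. MMP1 stands above 11 on both ESRP1-overexpressing arrays, while TIMP1 and SERPINE2 are low on both Empty arrays and close together in Scr and ESRP1-overexpressing cells.

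The remaining metalloproteinases were dim or not detected. MMP7, or matrilysin, is a small secreted enzyme that Paneth cells make in the mouse gut and that many human colorectal tumours express. Its first probe read signals of 116.6 to 183.5 with detection p between 0.453 and 0.934, and its second read 100.2 to 158.3 with detection p between 0.549 and 0.999, so neither probe was detected on any array. MMP14, a membrane-anchored collagenase that activates pro-MMP2 with the help of TIMP2, read 148.0 to 231.0 with detection p between 0.070 and 0.455, and was likewise detected on no array. These 3 probes were therefore not tested. With no filter on detection their adjusted p lay between 0.622 and 0.985 in both comparisons and their difference.

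MMP15, a second membrane-anchored metalloproteinase, had log2 levels of 7.26 and 7.41 (Scr), 7.69 and 7.82 (ESRP1-silenced), 6.84 and 7.40 (Empty), and 7.82 and 7.31 (ESRP1-overexpressing). The Empty array at 6.84 did not detect it. The 2 ESRP1-silenced arrays lay above both Scr arrays, whereas ESRP1-overexpressing and Empty arrays overlapped. The log2 difference was 0.44 (SE 0.24, 95% interval -0.12 to 1.01, adjusted p = 0.29) with overexpression and 0.42 (SE 0.24, 95% interval -0.14 to 0.99, adjusted p = 0.48) with silencing. No neighbours in the order of its groups (ESRP1-silenced, ESRP1-overexpressing, Scr, Empty) were apart beyond the spread of their arrays.

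PLAU encodes urokinase, the activator of plasminogen. Scr arrays gave log2 levels of 8.64 and 8.40, ESRP1-silenced arrays 7.67 and 7.27, Empty arrays 6.60 and 6.76, both without detection, and ESRP1-overexpressing arrays 7.50 and 7.09. Scr arrays were the highest of all and Empty arrays the lowest, while ESRP1-silenced and ESRP1-overexpressing arrays overlapped. With silencing the log2 difference from Scr cells was -1.05 (SE 0.20, 95% interval -1.53 to -0.57, adjusted p = 0.13), the member furthest below 0 there and 103 of 18231 by size. In ESRP1-overexpressing cells it was at least 1.23-fold higher than in Empty cells, taking the lowest detected signal of each Empty array as the floor wherever that exceeded the probe's own, and this did not pass the test (adjusted p = 0.12). The difference of the comparisons passed it (adjusted p = 0.033), and its fitted value of 1.66 takes the Empty level below detection. With Empty at the floor it was at least 1.35 on the log2 scale. This call was lost without any 1 of the 8 arrays (adjusted p between 0.056 and 0.113). Without background correction the fitted difference was 0.92 (adjusted p = 0.0089), and the silencing value of -0.64 then passed the test (adjusted p = 0.026).

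TIMP1 is a secreted inhibitor of most soluble metalloproteinases, MMP1 among them. Its log2 levels were 8.89 and 9.06 (Scr), 8.66 and 9.13 (ESRP1-silenced), 7.46 and 7.88 (Empty), and 9.13 and 9.06 (ESRP1-overexpressing). Both Empty arrays stood below every other array, and Scr and ESRP1-silenced arrays overlapped. TIMP1 rose in ESRP1-overexpressing against Empty cells on the log2 scale by 1.42 (SE 0.20, 95% interval 0.94 to 1.91, adjusted p = 0.012). With silencing the log2 difference from Scr cells was -0.08 (SE 0.20, 95% interval -0.56 to 0.40, adjusted p = 0.90). The comparisons differed by 1.50 (SE 0.29, 95% interval 0.82 to 2.19, adjusted p = 0.045). Without ESRP1-overexpressing replicate 1 or 2 the rise did not pass the test (adjusted p up to 0.068), nor with only the 4 arrays of the comparison in the fit (adjusted p = 0.065), and the difference of the comparisons passed it only when Empty replicate 2 was the array left out, with adjusted p from 0.049 to 0.155.

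Across chips, the TIMP1 means of ESRP1-overexpressing and Scr cells were 9.09 ± 0.05 and 8.97 ± 0.12 on the log2 scale (SD, n = 2 arrays), 0.12 apart. Empty minus Scr was -1.31.

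TIMP2 both inhibits metalloproteinases and helps MMP14 to activate pro-MMP2. Its first probe gave log2 levels of 11.11 and 11.15 (Scr), 10.80 and 10.87 (ESRP1-silenced), 11.12 and 11.11 (Empty), and 11.08 and 11.09 (ESRP1-overexpressing). Its second probe gave 10.06 and 10.02, 9.54 and 9.73, 8.78 and 8.69, and 8.87 and 8.93 in the same order of groups. By both probes the 2 ESRP1-silenced arrays lay below the 2 Scr arrays, with log2 differences of -0.29 (SE 0.10, adjusted p = 0.31) and -0.41 (SE 0.12, adjusted p = 0.24). With overexpression the differences were -0.03 (SE 0.10, 95% interval -0.28 to 0.21, adjusted p = 0.87) and 0.16 (SE 0.12, 95% interval -0.12 to 0.44, adjusted p = 0.43). The probes disagreed between the control lines: Empty minus Scr was -0.01 by the first probe and -1.31 by the second.

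TIMP3 differs from the other TIMPs in that it binds to the extracellular matrix and also inhibits ADAM17 and several ADAMTS enzymes. Scr arrays gave 9.14 and 9.63 on the log2 scale, ESRP1-silenced arrays 8.52 and 8.38, Empty arrays 9.50 and 9.64, and ESRP1-overexpressing arrays 9.90 and 10.14. Its highest group was thus ESRP1-overexpressing and its lowest ESRP1-silenced, with Empty and Scr overlapping between them. The log2 difference was -0.94 (SE 0.19, 95% interval -1.38 to -0.49, adjusted p = 0.13) with silencing and 0.45 (SE 0.19, 95% interval 0.01 to 0.90, adjusted p = 0.18) with overexpression, neither past the threshold. The difference of the comparisons passed it at 1.39 (SE 0.26, 95% interval 0.76 to 2.02, adjusted p = 0.044). It was lost without any 1 of the 8 arrays (adjusted p between 0.057 and 0.125) and with the replicate number as a block (adjusted p = 0.056). The silencing value passed the test under 4 of 16 alternative settings of limma, for example at -0.70 without background correction (adjusted p = 0.029).

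The control lines of TIMP3 overlapped, and its treated groups lay on either side of them. Empty and Scr means were 9.57 ± 0.10 and 9.38 ± 0.34 (SD, n = 2 arrays).

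SERPINE2, or protease nexin 1, is a serpin that inhibits thrombin, urokinase and plasmin. Its log2 levels were 9.40 and 9.28 (Scr), 8.69 and 8.88 (ESRP1-silenced), 7.37 and 7.75 (Empty), and 9.16 and 9.35 (ESRP1-overexpressing). The Empty arrays were the lowest, and Scr and ESRP1-overexpressing arrays overlapped at the top. It rose in ESRP1-overexpressing against Empty cells on the log2 scale by 1.69 (SE 0.17, 95% interval 1.30 to 2.09, adjusted p = 0.0034), which did not pass with only the 4 arrays of the comparison in the fit (adjusted p = 0.058). With silencing the log2 difference from Scr cells was -0.56 (SE 0.17, 95% interval -0.95 to -0.16, adjusted p = 0.25). The comparisons differed by 2.25 (SE 0.23, 95% interval 1.69 to 2.80, adjusted p = 0.0081), and that call was lost only without Scr replicate 1 (adjusted p = 0.054).

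**Figure D2:**
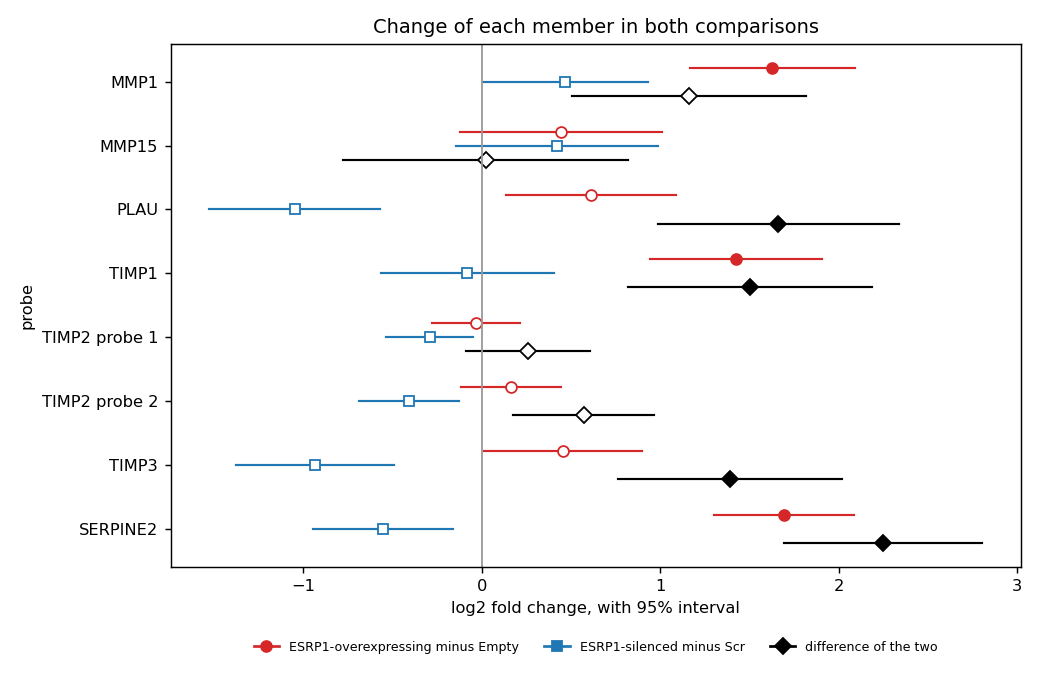
Log2 fold change (x axis) of each tested member probe with its 95% interval, for ESRP1-overexpressing minus Empty cells (circles), ESRP1-silenced minus Scr cells (squares) and the difference of these (diamonds); filled symbols passed an adjusted p under 0.05. The PLAU circle and diamond rest on Empty arrays that did not detect it. MMP1, TIMP1 and SERPINE2 are filled for overexpression, no square is filled, and PLAU, TIMP1, TIMP3 and SERPINE2 are filled for the difference.

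Across the members, the difference of the comparisons was called higher for 4 of 8 probes and lower for 0, beside 1.76% higher and 1.44% lower of all probes. These counts too are a description, given how the members were chosen. All 8 member values of it were above 0, with a median of 1.28, or 1.25 with PLAU at its bound. MMP1 and MMP15 were the members with values above 0 in both comparisons, and PLAU, TIMP1, TIMP3, SERPINE2 and the second TIMP2 probe had values above 0 with overexpression and below 0 with silencing. PLAU, TIMP1, SERPINE2 and the second TIMP2 probe had Empty as their lowest group, and MMP15 had it too. Across chips PLAU was at least 2.87-fold higher in Scr than in Empty cells, and Empty minus Scr on the log2 scale was -1.31 for TIMP1, -1.78 for SERPINE2, -1.31 for the second TIMP2 probe and -0.21 for MMP15, whose arrays overlapped. ESRP1-overexpressing minus Scr, also across chips, was -0.09 for SERPINE2 and 0.12 for TIMP1, but -1.22 for PLAU and -1.14 for the second TIMP2 probe.

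The wider set of proteases and inhibitors moved in both directions. Of 124 further genes in 7 lists, 118 had a probe and 53 were measured with 1 probe each, and in ESRP1-overexpressing against Empty cells 6 were called higher, 4 lower and 43 not called. The 6 include SERPINA5, detected in neither group, and ADAMTS9, not detected in Empty cells. The 4 include ADAMTS4, detected only in Empty cells, so that the detection filter favoured its fall. Of all 10805 genes, 8.07% were called in that comparison in either direction. The median log2 fold change of the 53 was 0.12 against 0.0003 over all genes. In ESRP1-silenced against Scr cells none of the 53 was called by limma, beside 0.157% of all genes, with 7 higher and 7 lower at an unadjusted p under 0.05, and the median was 0.01 against -0.02.

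Of 19 other metalloproteinases only MMP11, MMP23B and MMP24 were measured, and none was called. MMP11, a secreted enzyme first known from breast tumour stroma, read 7.05 and 6.89 in Scr and 7.89 and 8.19 in ESRP1-silenced cells, a log2 difference of 1.07 (SE 0.32, adjusted p = 0.26). MMP23B (adjusted p = 0.45 with overexpression) was detected in neither group of that comparison, so no fold is given. TIMP4, the only measured gene of 7 other metalloproteinase inhibitors, had log2 differences of 0.90 (adjusted p = 0.19) with overexpression and 0.65 (adjusted p = 0.49) with silencing.

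In the list for plasminogen activation, 8 of 17 genes were measured, with 1 called higher and 0 lower. That gene was SERPINA5, the protein C inhibitor, which also inhibits urokinase. It was not detected on either the Empty or the ESRP1-overexpressing arrays, so its adjusted p of 0.0094 comes with no fold. With silencing, the largest value was that of 1 of 2 probes of F2R, the thrombin receptor, at -0.69 (SE 0.24, adjusted p = 0.30), the other probe reading -0.08 (adjusted p = 0.81). SERPINB2 and F2RL1 were not analysed here.

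Of 27 ADAM and ADAMTS proteases 7 were measured, 1 higher and 1 lower with overexpression. ADAMTS9, which cuts proteoglycans such as versican and aggrecan, read signals of 116.8 and 133.5 in Empty cells, where it was not detected. In ESRP1-overexpressing cells it read 257.9, detected, and 230.8, not detected (adjusted p = 0.00083 from limma). The Empty floor left no lower bound above 1, so no fold is given. The aggrecanase ADAMTS4 read 260.4 and 321.2 in Empty cells. In ESRP1-overexpressing cells it read 199.4 and 222.0, without detection, which puts the fall at 1.85-fold or more (limma, adjusted p = 0.031). Of the 8 arrays only the 2 Empty arrays detected it, so the probe met the detection filter through the higher group alone. The filter thus favoured a fall from Empty, and this call cannot be read apart from it. ADAM17, the sheddase of TNF and of EGF receptor ligands, had in 1 of 3 probes the largest silencing value of the list, at least 1.36-fold higher without passing the test (adjusted p = 0.36). The other ADAM17 probes read -0.15 (adjusted p = 0.74) and -0.12 (adjusted p = 0.81).

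Membrane serine proteases and Kunitz-type and related inhibitors were measured for 14 of 19 genes, 1 higher and 1 lower. TFPI, the tissue factor pathway inhibitor, fell with overexpression by all 3 probes, with log2 fold changes of -1.89 (adjusted p = 0.00055), -0.80 (adjusted p = 0.015) and -0.66 (adjusted p = 0.024). With silencing the same probes gave -0.82 (adjusted p = 0.073), -1.03 (adjusted p = 0.0502) and -0.81 (adjusted p = 0.082), none of which passed. PI3, or elafin, which inhibits neutrophil elastase, rose with overexpression by 0.57 (SE 0.13, adjusted p = 0.048) and had a silencing value of -0.82 (adjusted p = 0.098).

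Cathepsins and cystatins, a list of mainly lysosomal proteases and of cysteine protease inhibitors, were measured for 13 of 23 genes, 1 higher and 1 lower by the probe with the highest mean. CST1, a secreted cystatin, fell from 10.97 and 11.07 on the Empty arrays to 8.61 and 8.62 with overexpression, a log2 difference of -2.40 (SE 0.15, adjusted p = 0.00068). In Scr cells it read 9.33 and 9.21 and in ESRP1-silenced cells 10.75 and 10.35, a log2 difference of 1.27 (SE 0.15, adjusted p = 0.051). CTSZ rose by 0.54 (adjusted p = 0.030), and CTSC, which activates granule serine proteases, rose by 0.66 and 0.61 with 2 of 3 probes (adjusted p = 0.039 and 0.030), the third reading 0.53 (adjusted p = 0.12). LGMN, or legumain, fell by 0.67 with 1 probe (adjusted p = 0.039), the other reading -0.49 (adjusted p = 0.087).

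Proprotein convertases, astacins and the metalloproteinase inducer BSG were measured for 7 of 12 genes, 2 higher and 1 lower. PCSK5 and PCSK6 are convertases that cut pro-proteins at basic sites. PCSK5 rose by 0.76 (SE 0.11, adjusted p = 0.013), PCSK6 fell by 1.02 (SE 0.17, adjusted p = 0.019), and a second PCSK6 probe was at least 1.42-fold lower (adjusted p = 0.031). MEP1A, a brush border metalloproteinase of the meprin family, rose by 0.69 (SE 0.13, adjusted p = 0.031). PCSK5 also had the largest silencing value of the list, at -0.39 (SE 0.11, adjusted p = 0.24).

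**Figure D3:**
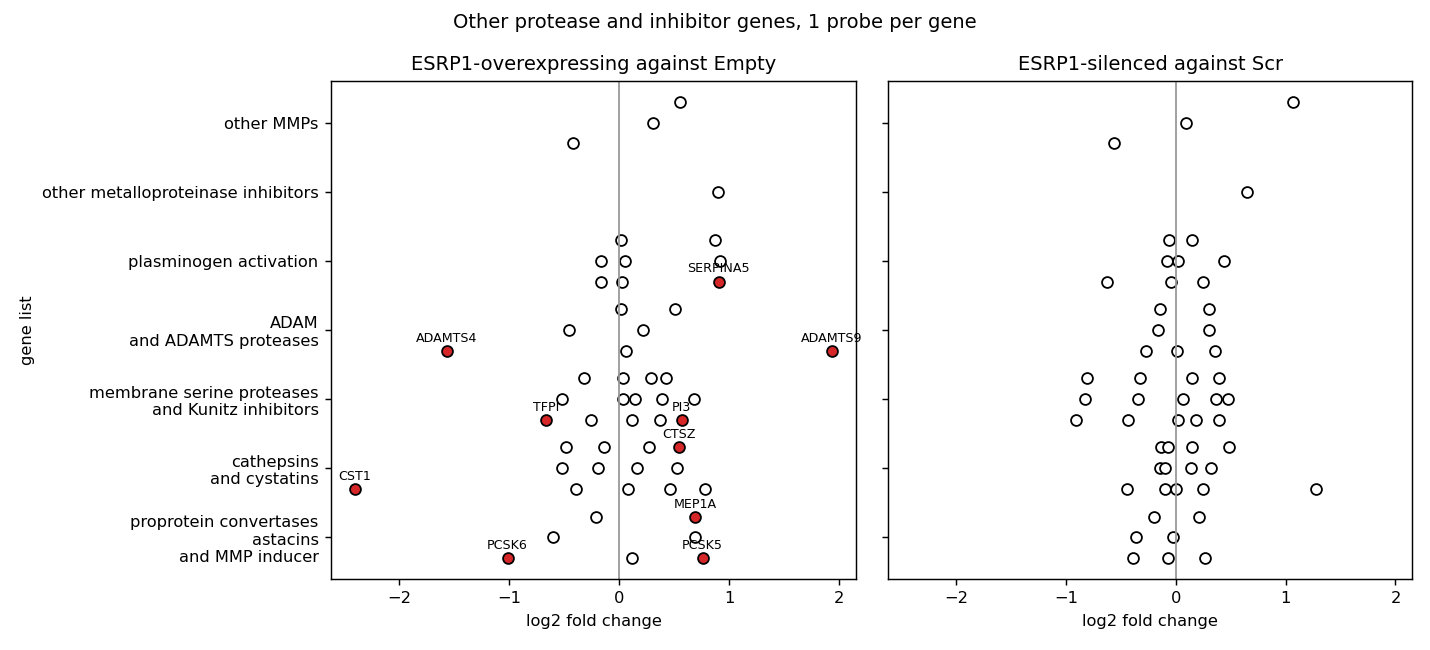
Log2 fold change (x axis) of 53 other protease and inhibitor genes by list (y axis), 1 probe per gene, with overexpression (left) and silencing (right). Filled and named points passed an adjusted p under 0.05, and values include genes that 1 or both groups did not detect. The 10 filled points on the left lie on both sides of 0, 6 higher and 4 lower, and no point is filled on the right.

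The genes whose profiles over the 8 arrays were nearest to those of the members were found by the root mean square difference of log2 levels, each probe centred on its own mean. These neighbours share the 8 arrays and 2 chips with the members, and the measure is a description. MMP1, whose levels spanned 3.88 on the log2 scale, was nearest to VCAN at 0.57, TAF5L at 0.62 and CTSZ at 0.62. The measure is not scaled to the span of a member, so a wide span can give larger differences. PLAU, spanning 2.04, was nearest to SLC8A2 at 0.23, FGFBP1 at 0.24 and MATN2 at 0.25. On the Empty arrays SLC8A2 read 5.12 and 5.19, below the 6.60 and 6.76 at which PLAU was not detected there. Neighbours needed detection on only 2 of the 8 arrays, so part of a likeness can be agreement below detection. TIMP1, spanning 1.67, was nearest to VTN, PDE5A and TAP2, each at 0.17. SERPINE2, spanning 2.03, was nearest to RARRES1 at 0.16, PDE5A at 0.17 and CREB5 at 0.19, so PDE5A was listed for both of these inhibitors. TIMP3, spanning 1.76, was nearest to ANKLE1 at 0.18, JUN at 0.20 and VEGFA at 0.21. MMP15 was nearest to DFFB at 0.10, SF1 at 0.13 and HES1 at 0.16, and the first TIMP2 probe, which spanned 0.35, to ARF1, HINFP and SWAP70 at 0.04 to 0.05.

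**Figure D4:**
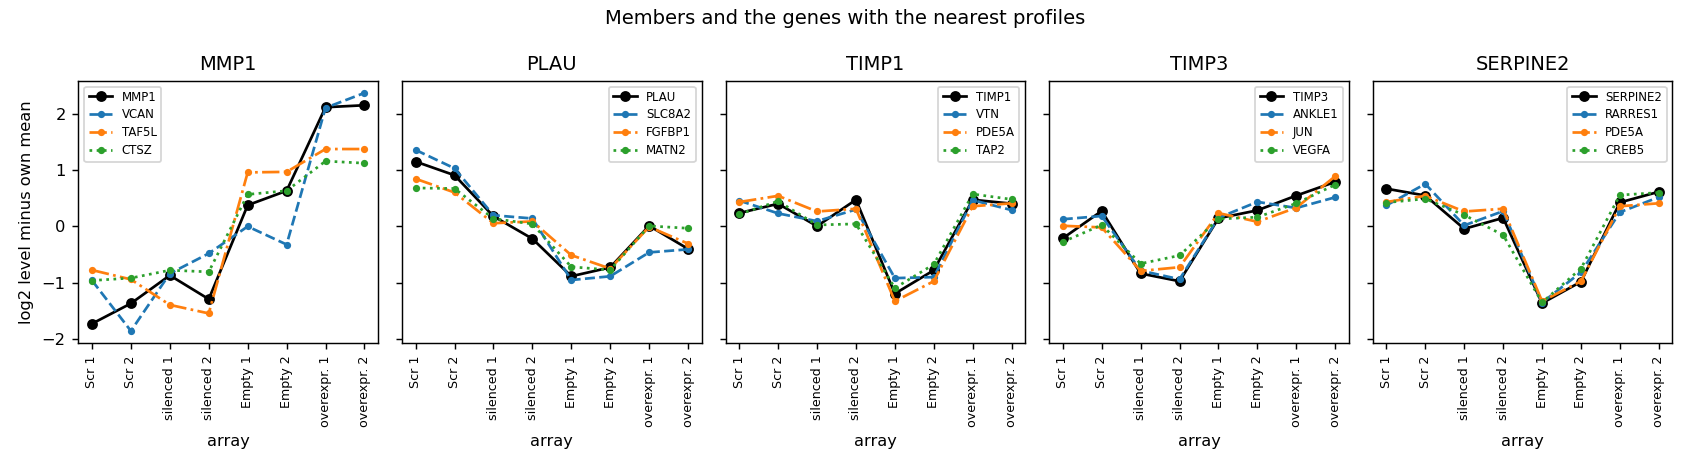
Log2 level minus the mean of the same probe (y axis) on each array (x axis) for 5 members (black) and the 3 named genes with the nearest profile to each. TIMP1 and SERPINE2 and their neighbours dip on both Empty arrays, TIMP3 and its neighbours on both ESRP1-silenced arrays, and the lines for MMP1 lie furthest apart.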

How the data were processed

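Expression was measured on 8 arrays of adherent Caco-2 cells in 4 groups. The authors deposited probe intensity as raw signal (lowest 73.8) and a detection p-value per array, of which 88 written with a comma were read as 1. A second deposited table holds intensity values that the authors normalized on the linear scale (median 192.3 on each array, rank correlation with the signals at least 0.999991), by software not named in the sources at hand. In limma version 3.58.1 (R version 4.3.3), neqc corrected the background through the detection p-values, with an offset of 16, and returned quantile-normalized log2 values. A probe needed a detection p under 0.01 on at least 2 arrays, which 18231 of 47322 met. Platform annotation gave 1 symbol to 30113 probes, several to 8 and none to 17201.

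One limma fit of 4 groups (4 residual and 2.8 prior degrees of freedom) gave both comparisons and their difference, with two-sided p-values adjusted by Benjamini-Hochberg. The number of arrays limits the precision. Against a group without detection, a fold used the higher of the probe's own level and the lowest detected level of each array. The script was tested on simulated data. Lists used the probe with the highest mean per gene. Named were all member probes, up to 4 called genes per list with the largest change and no overlap of arrays, or 1 gene where none was called, the 3 nearest profiles per member, and ESRP1. Members, lists and rule were chosen with earlier results of these data known. The alternatives left out background correction, the detection filter or each array in turn, used the authors' values, separate chips, detection on all arrays, only 4 arrays, a replicate block or another variance prior (trended and robust), or applied the methods' t-test.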

Additional observations from a re-analysis of the deposited data

Results flagged for a closer look

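The difference between the overexpression effect (ESRP1-overexpressing minus Empty) and the silencing effect (ESRP1-silenced minus Scr) passed the limma test for 4 members and 6 other genes named above, all on the log2 scale. Among the members it was 1.50 for TIMP1 (adjusted p = 0.045), 1.39 for TIMP3 (adjusted p = 0.044) and 2.25 for SERPINE2 (adjusted p = 0.0081). For PLAU, which Empty cells did not detect, the fitted value was 1.66 (adjusted p = 0.033), and with Empty at the floor it was at least 1.35. It was above 0 for PI3 at 1.39 (standard error 0.18, adjusted p = 0.016) and PCSK5 at 1.15 (standard error 0.16, adjusted p = 0.018). It was below 0 for the cystatin CST1 at -3.68 (standard error 0.22, adjusted p = 0.0012) and for 1 of 3 TFPI probes at -1.07 (standard error 0.16, adjusted p = 0.021), which lay below 0 in both comparisons. For the other 2 TFPI probes it was above 0 and did not pass, at 0.24 (adjusted p = 0.48) and 0.14 (adjusted p = 0.67). CST1 was lower in both ESRP1-overexpressing than in both Empty arrays and higher in both ESRP1-silenced than in both Scr arrays. The test was also passed by ADAMTS9 (adjusted p = 0.011), which Empty cells did not detect, and by SERPINA5 (adjusted p = 0.047), detected in neither group of the overexpression comparison. Their fitted values of 1.58 and 0.89 rest on levels below detection and are neither folds nor bounds. With 2 arrays per group, no array could be tested as standing apart from its group.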

How the results depend on the processing

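Over the alternatives, 346 of 402 values of member probes kept their direction and their side of the threshold, 37 lost a call, 11 gained one and 8 changed sign. The rise of MMP1 with overexpression passed in all 16 alternative limma fits (adjusted p 1.4e-05 to 0.044), that of SERPINE2 in 15 (lost with only 4 arrays in the fit, adjusted p = 0.058) and that of TIMP1 in 13 (lost there, adjusted p = 0.065, and without either ESRP1-overexpressing array). Sign changes were near 0: the MMP15 difference of the comparisons was -0.0048 without background correction, -0.075 with chips normalized separately and -0.26 to 0.30 when 1 array was left out, against 0.02, and the TIMP1 silencing value was -0.31 to 0.15 when 1 array was left out, against -0.08. The cause was not tested.

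Counts depended on the processing. With overexpression 1354 probes were called: 2208 without background correction, 2140 with the authors' values, 508 without a detection filter, 142 with only 4 arrays, 2557 with the trended prior, 452 by the methods' t-test with its fold threshold, 0 by that test after Benjamini-Hochberg, and 376 to 998 without 1 array. With silencing 24 were called (6 higher, 18 lower): 247 without background correction (113 higher, 134 lower), 219 with the authors' values (100 higher, 119 lower), 46 with separate chips, 237 with detection on all 8 arrays, 549 with the trended prior, 125 by the t-test with its fold threshold, and 0 without a filter, with only 4 arrays, with the replicate block, by the t-test after Benjamini-Hochberg or without any 1 array. For the difference 584 were called: 1249 without background correction, 1182 with the authors' values, 166 without a filter, 1039 with detection on all arrays, 351 with the replicate block, 1640 with the trended prior, and 91 to 349 without 1 array. Of member probes, the 3 called with overexpression became 1 (MMP1) with only 4 arrays or by the t-test with its fold threshold, 0 after Benjamini-Hochberg, and 2 to 3 without 1 array. The 0 with silencing became 2 (PLAU and TIMP3) without background correction, with the authors' values or with the trended prior, 1 (TIMP3) with detection on all arrays, and 0 to 0 without 1 array. The 4 for the difference became 5, with MMP1 added, without background correction, with the authors' values or with the trended prior, 1 (SERPINE2) without a filter, and 0 to 2 without 1 array.

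Same-numbered arrays deviated together with r = 0.020 (Empty and ESRP1-overexpressing) and 0.058 (Scr and ESRP1-silenced), so the numbers were not taken as pairs. With the replicate block 1061 probes were called with overexpression, 0 with silencing and 351 for the difference, and of the member calls only TIMP3 in the difference was lost. MMP15 and PLAU could not be tested with detection on all 8 arrays. The 2 arrays per group limit what could be detected, and the silencing comparison made few calls in all.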
